A study of Mus musculus with 2 samples.

Results

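Integrins are paired surface receptors, each an alpha and a beta subunit, that anchor cells to matrix or to other cells, and laminins are trimers of an alpha, a beta and a gamma chain that form the sheet of basement membranes. The members described here are all genes among the 19465 of the deposited tables whose symbols follow the naming of integrin alpha and beta subunits or of laminin chains. There are 37 of them, 26 integrin and 11 laminin genes, and all 37 passed the filter on low counts.

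The study grew breast cancer metastases in the mouse cerebellum and profiled 1 formalin-fixed section of 5 µm from each of 2 biological replicates with the Visium CytAssist assay, which counts probes for mouse transcripts as unique molecular identifiers (UMIs) at each barcoded spot of an array. Both tumors had the genotype HP, that is HER2 V777L together with PIK3CA H1047R, and neither mouse was treated. The HER2 transgene is human and driven by an actin promoter. The titles name the organoids HP-F1 +cre in section 1 and HP-B6 +cre in section 2. Per the study's methods, Cre-expressing adenovirus was injected into the mammary gland, organoids were cultured from the resulting tumors, labelled with luciferase and injected into the cerebellum of immunocompetent B6 mice 5 months old, so that the cells did not spread there by way of blood vessels. There is no uninjected cerebellum, and the comparisons are between regions of the same section.

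Each section was split by a score of 26 neural transcripts into a tumor body and neural tissue, and spots within 2 array steps of the border on either side were called the edge. No integrin or laminin was used for this. Tumor held 780 and 792 spots in sections 1 and 2, edge 321 and 301, and neural 2135 and 2703. The edge pooled 155 and 156 spots of the tumor body with 166 and 145 spots of the neural side. An edge level between those of tumor and neural spots can therefore reflect this mixture alone. A spot covers an area that may contain more than 1 cell. The median UMI count per spot was 54025.5 and 41026 in tumor, 14859 and 17297 in edge and 7648 and 9814 in neural spots. Levels are therefore given as CPM (counts scaled to a fixed total of UMIs per region, with TMM factors). The factors ran from 0.867 in the tumor of section 2 to 1.16 in the edge of section 1. CPM are thus relative levels, and equal shares of a region's UMIs only up to these factors. The 6 region libraries held 5229771 to 40148668 UMIs. A level that differs between regions can reflect more cells of a type or more transcript per cell, and the assay cannot tell these apart.

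The tumors of the 2 sections did not carry the same cell type markers. Epcam, which encodes an epithelial adhesion molecule, was at 7.13 CPM in the tumor of section 1 and at 2025 CPM in that of section 2, and the 10 luminal epithelial markers summed to 105 and 11564 CPM, with none of them at 0 in any library. The 10 fibroblast markers summed to 62354 CPM in the tumor of section 1 and to 794 CPM in that of section 2, the 8 T cell markers to 343 and 16.5 CPM, and the 11 macrophage markers to 6323 and 2213 CPM. The neural list that set the regions summed to 1139 and 1235 CPM in tumor and to 24327 and 22671 CPM in neural spots. The label of a breast tumor organoid is therefore borne out by epithelial transcripts in section 2 and not in section 1, and values are given for each section throughout. The part of this difference in the integrin and laminin values was not tested, since each organoid title has 1 section.

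Integrins with the shared beta1 chain bind collagen, laminin or fibronectin depending on the alpha partner, the alpha6 beta4 pair holds epithelial cells to basement membrane in hemidesmosomes, the alphaV integrins and alpha5 beta1 read the RGD sequence of fibronectin, vitronectin and related proteins, and the beta2 and beta7 integrins belong to leukocytes. Laminins differ by chain, with alpha4 typical of vessel walls, alpha5 of epithelia and mature vessels, and alpha3 and beta3 of epithelia with hemidesmosomes. In the normal brain, basement membranes lie mainly around vessels and at the pial surface.

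Together the 37 transcripts made up 0.328% and 0.361% of all UMIs in tumor (sections 1 and 2), 0.254% and 0.293% in the edge and 0.107% and 0.119% in neural spots. In tumor against neural spots, 15 of the 37 were higher and 0 were lower by edgeR's quasi-likelihood test with Benjamini-Hochberg adjustment over 19231 genes, called at an adjusted p below 0.05, with 2 sections as blocks. Of all genes tested, 13.7% were called higher and 15.4% lower (29.1% in either direction). The same shares stand beside the counts by role in tumor given below. At an unadjusted p below 0.05 there were 25 members, beside 8357 of the 19231 genes tested. DESeq2 called 24 members higher and 0 lower, where it called 4160 of all genes higher and 2997 lower. The median log2 fold change was 1.77 over the members and -0.12 over all genes. In both sections 25 members were higher in tumor and 3 lower, and 9 went opposite ways, which was not counted over all genes. The 10 integrins that rose were Itgb1, Itga1, Itga2, Itga5, Itga6, Itga8, Itgav, Itgb3, Itga4 and Itgax, and the 5 laminins were Lama4, Lamb1, Lamb2, Lamb3 and Lamc1.

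**Figure D1:**
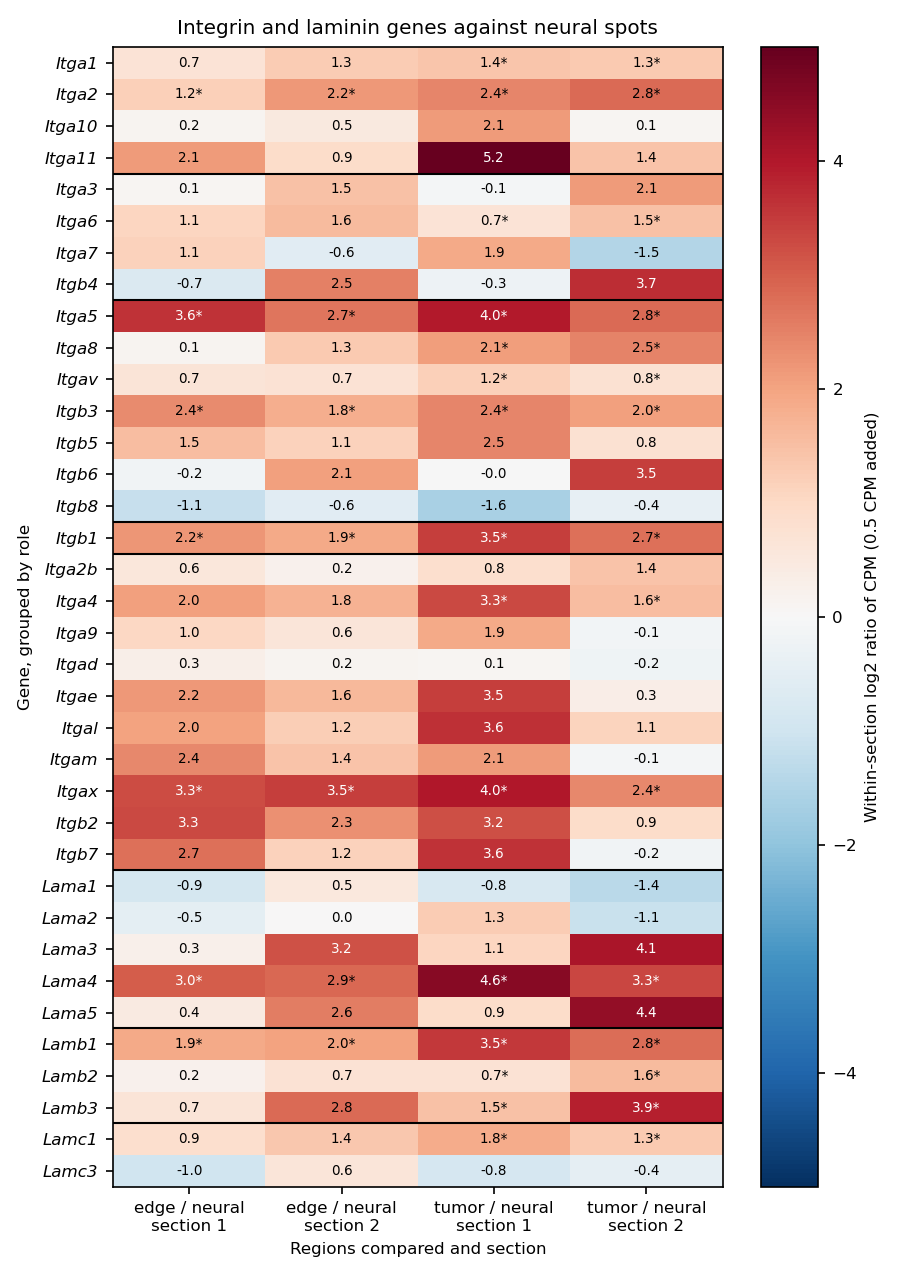
Heatmap of the within-section log2 ratio of CPM, with 0.5 CPM added, for 36 of the 37 genes (rows, lines between roles) in edge against neural and tumor against neural spots (columns, by section), red where higher than in neural spots and blue where lower. An asterisk marks genes called by edgeR at an adjusted p below 0.05 in that comparison, 7 for the edge and 15 for the tumor.

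Itgb1, which encodes the beta1 subunit shared by most matrix receptors (gene at chr8:128685654-128733579, GRCm38.p6), was at 714 CPM in tumor, 293 CPM in the edge and 63.9 CPM in neural spots of section 1, and at 675, 372 and 101 CPM in section 2. Levels stepped down from tumor to neural tissue in both sections, and the tumors of the 2 sections were close to each other. The log2 fold change of tumor against neural was 3.11 ± 0.29 (SE, n = 2 sections, edgeR adjusted p = 0.0031), and that of edge against neural was 2.03 ± 0.27 (SE, edgeR adjusted p = 0.037).

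Of the 4 collagen receptor subunits, 2 rose in tumor. Itga2, the alpha subunit of a collagen receptor of epithelia and platelets, was scarce, at 5.76, 2.14 and 0.658 CPM in tumor, edge and neural spots of section 1 and at 7.16, 4.32 and 0.581 CPM in section 2. These rest on 207, 13 and 14 UMIs in section 1 and on 199, 23 and 18 UMIs in section 2, and its log2 fold change was 3.38 ± 0.37 (SE, edgeR adjusted p = 0.0048). Itga1, which encodes the alpha subunit of a collagen IV receptor, was at 31.9 CPM in tumor and 11.8 CPM in neural spots of section 1 and at 49.2 and 19.4 CPM in section 2 (log2 fold change 1.39 ± 0.27 SE, edgeR adjusted p = 0.020), but not when the block was left out (edgeR adjusted p = 0.105). Itga11, a receptor subunit of fibrillar collagen known from fibroblasts, was at 105 CPM in tumor, 12.5 CPM in the edge and 2.44 CPM in neural spots of section 1. In section 2 it was at 5.36, 3.57 and 1.68 CPM, and its log2 fold change of 3.70 ± 1.05 (SE) did not pass the test (edgeR adjusted p = 0.061). Its tumor level in section 2 was 0.0511 times that in section 1 (95% counting interval 0.0434 to 0.0602), and fibroblast markers differed between the tumors in the same direction. Itga10 had tumor levels of 18.2 and 4.78 CPM and was not called.

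Of the 4 laminin receptor subunits, Itga6 alone was called. Itga6, which pairs with beta1 or beta4, was at 55.1, 71.1 and 33.9 CPM in tumor, edge and neural spots of section 1 and at 153, 165 and 54.8 CPM in section 2. The edge was highest both times, though its 95% counting interval overlapped that of tumor in section 2. Its log2 fold change of tumor against neural was 1.09 ± 0.26 (SE, edgeR adjusted p = 0.035), a call lost in 4 alternative fits (edgeR adjusted p 0.072 to 0.222). Itgb4, the hemidesmosomal partner of Itga6, was at 44.7 CPM in tumor, 32.3 CPM in the edge and 53.6 CPM in neural spots of section 1. In section 2 the same regions had 651, 292 and 49.99 CPM. Tumor and neural levels thus lay near each other in section 1 and far apart in section 2, and the tumor of section 2 had 14.6 times the level of that of section 1 (95% counting interval 13.8 to 15.3). Itga3, the alpha subunit of an epithelial laminin receptor, had tumor and neural levels of 44.4 and 47.5 CPM in section 1 and of 372 and 85.3 CPM in section 2. Neither Itgb4 (edgeR adjusted p = 0.36) nor Itga3 (edgeR adjusted p = 0.25) passed the test over the sections. Itga7, the laminin receptor subunit of muscle, was higher in the tumor of section 1, at 66.6 against 17.6 CPM, and lower in that of section 2, at 9.31 against 26.9 CPM. Luminal and basal epithelial markers, which summed to 123 and 2015 CPM for the basal list in the tumors of sections 1 and 2, moved with Itgb4 and Itga3, and their part was not tested.

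**Figure D2:**
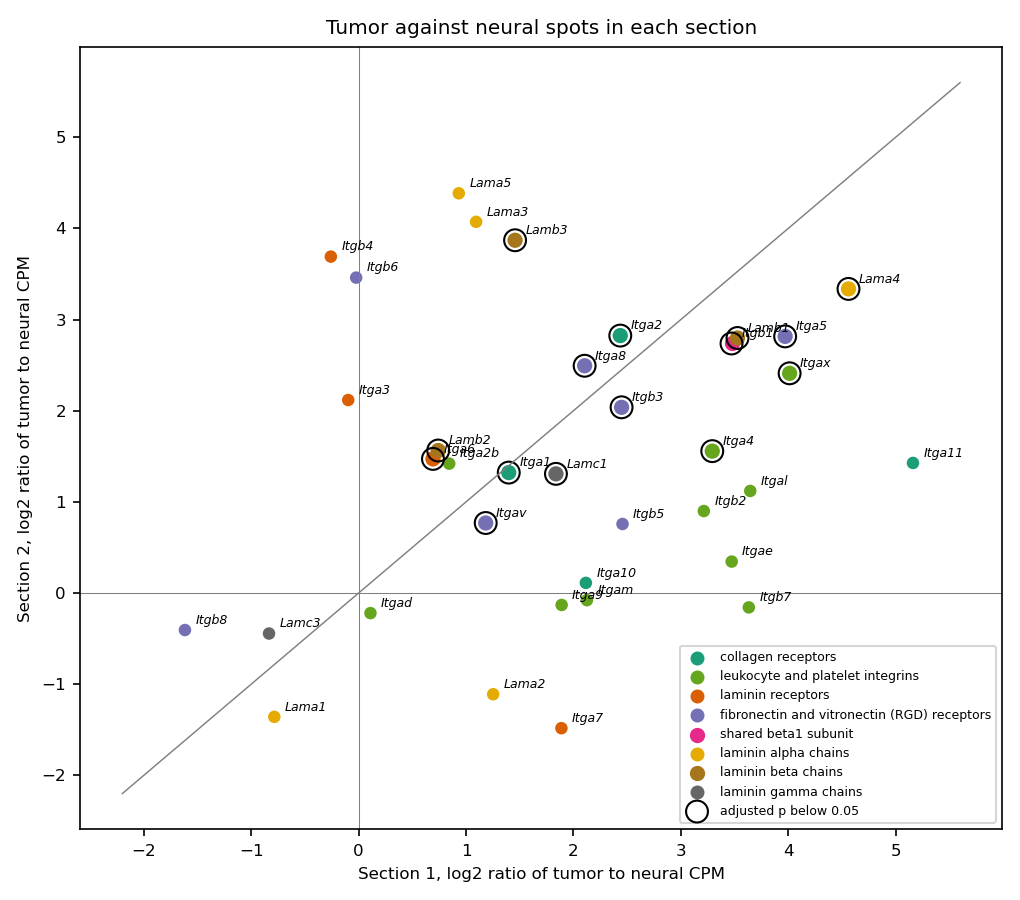
Log2 ratio of tumor to neural CPM (0.5 CPM added) of 36 of the 37 genes in section 1 (horizontal axis) against section 2 (vertical axis), colored by role, with a black ring around the 15 genes called by edgeR and a grey line where the sections are equal. Itgb4, Itgb6, Lama3 and Lama5 lie far above the line, Itga11 and Itgb7 far below it, and the ringed genes lie right of and above 0 on both axes.

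Among the 7 subunits of RGD receptors, 4 rose in tumor. Itga5, the alpha subunit of the fibronectin receptor, was at 137, 105 and 8.27 CPM in tumor, edge and neural spots of section 1 and at 74.6, 68.2 and 10.2 CPM in section 2. Edge levels were thus near those of tumor and far above neural tissue, with log2 fold changes of 3.44 ± 0.36 (SE, edgeR adjusted p = 0.0044) for tumor and 3.17 ± 0.36 (SE, edgeR adjusted p = 0.035) for edge against neural. Itgb3, whose product pairs with alphaV and with the platelet subunit alphaIIb, showed the same order, with 40.7, 38.2 and 7.05 CPM in section 1 and 32.8, 28.0 and 7.62 CPM in section 2 (tumor against neural log2 fold change 2.31 ± 0.26 SE, edgeR adjusted p = 0.0052). Itga8, an RGD receptor subunit of mesenchymal cells, was instead highest within the tumor, at 17.4 against 4.11 CPM in the edge and 3.66 CPM in neural spots of section 1 and at 20.9, 8.83 and 3.29 CPM in section 2 (2.44 ± 0.40 SE, edgeR adjusted p = 0.014). Of its 625 tumor UMIs in section 1, 480 lay 13 or more steps inside the border, and from 12 to 3 steps inside its level was 2.82 to 9.32 CPM (without TMM scaling), so the deep part of that tumor carried the regional value. In section 2 the level from 12 to 3 steps inside was 13.7 to 22.8 CPM. Itgav, the alphaV subunit, was well represented in neural tissue too, at 114 and 135 CPM, and reached 260 and 230 CPM in tumor (0.98 ± 0.23 SE, edgeR adjusted p = 0.032), a call lost in 3 alternative fits (edgeR adjusted p 0.053 to 0.0972).

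The remaining subunits of this group did not pass the test. Itgb5 was at 683, 359 and 124 CPM in tumor, edge and neural spots of section 1 and at 335, 438 and 198 CPM in section 2, where the edge was the highest region. By edgeR its adjusted p was 0.061 for tumor against neural and 0.173 for edge against neural. Itgb6, known from epithelia, stayed between 2.47 and 2.87 CPM in all regions of section 1, and was at 32.7, 12.02 and 2.52 CPM in section 2. Itgb8, which in the brain is known from astrocytes and neural progenitors, was lower in tumor than in neural spots in both sections, at 59.3, 82.9 and 183 CPM in tumor, edge and neural spots of section 1 and at 107, 94.8 and 142 CPM in section 2 (-1.01 ± 0.34 SE, edgeR adjusted p = 0.084).

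For the fibronectin receptor pair Itga5 and Itgb1, whose transcripts were called in both tumor and edge, and for the leukocyte subunit Itgam, whose transcript was highest in the edge, the 250 bases before the annotated gene start are shown (RefSeq, GRCm38.p6, the same coordinates as the mm10 build of the submitters' processing notes). Capitals mark the letters GAGGAA, a purine-rich string found in sites of the myeloid factor PU.1, and GGGCGG, a GC box, each on either strand.
Itga5, chr15:103366792-103367041, minus strand: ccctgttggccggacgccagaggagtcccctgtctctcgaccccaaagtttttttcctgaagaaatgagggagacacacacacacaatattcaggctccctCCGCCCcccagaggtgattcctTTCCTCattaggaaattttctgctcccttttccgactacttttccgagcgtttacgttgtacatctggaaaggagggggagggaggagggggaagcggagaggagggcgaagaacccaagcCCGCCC
Itgb1, chr8:128685404-128685653, plus strand: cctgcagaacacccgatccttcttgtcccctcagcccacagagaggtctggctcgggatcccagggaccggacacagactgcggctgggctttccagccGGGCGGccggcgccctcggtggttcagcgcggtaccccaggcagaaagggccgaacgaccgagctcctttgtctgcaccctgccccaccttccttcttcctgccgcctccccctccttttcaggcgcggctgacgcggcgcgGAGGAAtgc
Itgam, chr7:128062390-128062639, plus strand: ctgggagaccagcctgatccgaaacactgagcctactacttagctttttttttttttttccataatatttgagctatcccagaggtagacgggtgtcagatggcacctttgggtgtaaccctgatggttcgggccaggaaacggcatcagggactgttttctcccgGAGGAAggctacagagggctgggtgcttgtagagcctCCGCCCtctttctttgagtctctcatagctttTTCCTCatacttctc
The Itgam window holds GAGGAA at 2 places and the windows of Itga5 and Itgb1 at 1 each. Of the 32851 windows of this length in the table, 23.2% hold GAGGAA and 32.7% hold GGGCGG. Of the 23 members with a window, 13 hold GAGGAA and 8 hold GGGCGG. Another string searched, TGANTCA of AP-1 sites, is in 6.75% of all windows and, among members, for Itgax alone. A member was counted where any of its windows held the string, while the percentages are per window. The member counts therefore cannot be set against those percentages. These matches describe letters and are not evidence of binding.

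The 10 leukocyte and platelet integrins gave 2 calls in tumor. Itgax, the alphaX subunit of dendritic cells and macrophages, was at 50.8, 29.9 and 2.68 CPM in tumor, edge and neural spots of section 1 and at 18.8, 39.8 and 3.13 CPM in section 2. Neural spots were lowest in both sections, and the order of tumor and edge changed between them. Its log2 fold change was 3.50 ± 0.58 (SE, edgeR adjusted p = 0.015) for tumor and 3.59 ± 0.57 (SE, edgeR adjusted p = 0.044) for edge against neural. Itga4, the alpha4 subunit of the lymphocyte and monocyte receptor for VCAM1, was at 75.7, 31.6 and 7.28 CPM in section 1 and at 29.6, 34.0 and 9.72 CPM in section 2 (tumor against neural 2.55 ± 0.52 SE, edgeR adjusted p = 0.026), and its call was lost with neural spots within 15 steps of the tumor (edgeR adjusted p = 0.063).

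Itgam and Itgb2, which together form the complement receptor CR3 of macrophages, microglia and neutrophils, were highest in the edge in both sections. Itgam was at 172, 210 and 39.1 CPM in tumor, edge and neural spots of section 1 and at 63.6, 182 and 67.2 CPM in section 2. Itgb2 was at 253, 267 and 26.8 CPM in section 1 and at 76.3, 201 and 40.7 CPM in section 2. The 95% counting intervals of its tumor and edge levels overlapped in section 1. The edge stood close to tumor in section 1 and well above it in section 2. Summed macrophage markers were at 6323 and 5744 CPM in tumor and edge of section 1 and 2213 and 5742 CPM in section 2. Their order of tumor and edge in section 1 was the reverse of that of the 2 genes. The microglia markers summed to 1151 and 1474 CPM in tumor and edge of section 1 and to 368 and 1314 CPM in section 2. The neutrophil markers summed to 77.9 and 84.6 CPM and to 76.1 and 105 CPM. Both of these lists were highest in the edge in each section. Neither gene passed the test of edge against neural, with log2 fold changes of 1.84 ± 0.56 (SE, edgeR adjusted p = 0.13) for Itgam and 2.70 ± 0.61 (SE, edgeR adjusted p = 0.075) for Itgb2. The part of macrophages, microglia or neutrophils in these values was not tested.

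The lymphocyte integrins were high in the tumor of section 1 and low in that of section 2. Itgal, the alpha subunit of LFA-1, was at 65.2 and 8.23 CPM, Itgae, the alpha subunit of tissue-resident T cells that binds E-cadherin, at 13.9 and 0.791 CPM, and Itgb7, the partner of Itgae and Itga4, at 43.6 and 2.55 CPM in the tumors of sections 1 and 2. All 3 fell in the same direction between the tumors as the T cell markers (343 and 16.5 CPM), and none was called. Other leukocyte lists fell too, dendritic cell markers from 3134 to 71.9 CPM and B and plasma cell markers from 167 to 17.3 CPM. The 6 dendritic cell markers include the MHC class II gene H2-Ab1. In tumor against neural spots edgeR called 0 of them higher and 1 lower, beside 13.7% and 15.4% of all genes. Their median log2 fold change was 0.56, so the sum need not speak for each gene. Macrophage markers fell from 6323 to 2213 CPM, and neutrophil markers stayed near level, at 77.9 and 76.1 CPM. The part of any of these cells was not tested. Itga2b, Itga9 and Itgad were not called either, and Itgad stayed between 0.899 and 2.80 CPM in all 6 libraries.

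Of the 11 laminin chains, 5 rose in tumor, and all 3 beta chains were among them. Lama4, the alpha chain of vessel wall laminins (gene at chr10:38965515-39110188, GRCm38.p6), had the largest fitted fold change of the 37 members in tumor against neural spots. It was at 121, 41.8 and 4.65 CPM in tumor, edge and neural spots of section 1 and at 79.5, 56.9 and 7.43 CPM in section 2, so the 3 regions did not overlap between sections. Its log2 fold change was 4.08 ± 0.41 (SE, edgeR adjusted p = 0.0040) for tumor and 3.03 ± 0.39 (SE, edgeR adjusted p = 0.036) for edge against neural. The 10 endothelial markers summed to 441, 543 and 334 CPM in section 1 and to 614, 831 and 366 CPM in section 2. Of the 10, edgeR called 3 higher in tumor and 4 in the edge against neural spots, beside 13.7% and 3.03% of all genes. The part of vessels in the values of Lama4 was not tested.

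Lamb1, the beta1 chain, was at 226, 72.2 and 19.2 CPM in tumor, edge and neural spots of section 1 and at 208, 121 and 29.5 CPM in section 2. Levels fell in steps from tumor to neural tissue, with log2 fold changes of 3.21 ± 0.30 (SE, edgeR adjusted p = 0.0035) for tumor and 1.98 ± 0.29 (SE, edgeR adjusted p = 0.038) for edge against neural. Lamc1, the gamma1 chain that joins Lamb1 in most laminins, was at 179, 90.2 and 49.7 CPM in section 1 and at 116, 119 and 46.4 CPM in section 2 (tumor against neural 1.60 ± 0.30 SE, edgeR adjusted p = 0.019). Lamb2, the beta2 chain of mature vessels and synapses, was at 39.5, 27.5 and 23.4 CPM in section 1 and at 77.0, 43.0 and 25.7 CPM in section 2 (1.16 ± 0.27 SE, edgeR adjusted p = 0.034), a call lost in 4 alternative fits (edgeR adjusted p 0.052 to 0.0791).

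The epithelial chains Lamb3, Lama3 and Lama5 separated the tumors of the 2 sections. Lamb3 was at 8.99, 4.94 and 2.96 CPM in tumor, edge and neural spots of section 1 and at 68.2, 32.9 and 4.20 CPM in section 2, and was called just inside the threshold (2.72 ± 0.72 SE, edgeR adjusted p = 0.0499), a call lost in 9 alternative fits (edgeR adjusted p 0.0501 to 0.136). Lama3 was at 7.18 and 61.7 CPM and Lama5 at 27.7 and 388 CPM in the tumors of sections 1 and 2, and neither passed the test of tumor against neural spots (edgeR adjusted p = 0.106 and 0.100). All 3 were higher in tumor than in neural spots in both sections, by far more in section 2, where the ratio to the tumor of section 1 was 7.58 for Lamb3 (95% counting interval 6.74 to 8.53) and 14.02 for Lama5 (95% counting interval 13.1 to 14.96). The luminal and basal epithelial markers were also higher in that tumor, and their part in these values was not tested.

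Lama2, Lama1 and Lamc3 were not called either. Lama2, the alpha chain of muscle and of vessels and nerves, was at 48.1 against 19.9 CPM in tumor and neural spots of section 1 and at 7.37 against 16.5 CPM in section 2, opposite directions. Lama1, the alpha chain of embryonic and pial basement membranes, was at 2.98 and 5.50 CPM in tumor and neural spots of section 1 and at 1.80 and 5.39 CPM in section 2. Lamc3 was at 4.23 against 7.94 CPM and at 4.42 against 6.20 CPM. Both were thus lower in tumor in each section without passing the test, with adjusted p of 0.17 and 0.29 by edgeR. A member's level in 1 library rested on as few as 7 UMIs, and 7 of the members had a library with under 20.

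Against neural spots, the edge had 7 members higher and 0 lower by edgeR (adjusted p below 0.05), where 3.03% of all genes were called higher and 3.52% lower (6.55% in either direction). They were Itgb1, Itga2, Itga5, Itgax, Itgb3, Lama4 and Lamb1. At an unadjusted p below 0.05 there were 16 members, beside 4862 of the 19231 genes tested. DESeq2 called 15 members higher and 0 lower, where it called 1780 of all genes higher and 1599 lower. The 7 edgeR calls were lost with regions drawn from k-means clusters and with neural spots limited to 15 steps from the tumor. In both settings edgeR called 0 of all genes. Tumor and edge were each set against the same neural spots, so their fold changes share that denominator. All members called in the edge were also called in tumor, and the edge includes spots of the tumor body. The part of this mixture in the edge levels was not tested. In tumor against edge, edgeR called 0 members in either direction, where 0.130% of all genes were called higher and 4.35% lower (4.48% in either direction). At an unadjusted p below 0.05 there were 5 members, beside 3740 of the 19231 genes tested. They were Itgb1 (log2 fold change 1.08), Lamb1 (1.23), Itga8 (1.61), Itga2 (1.04) and Lama4 (1.05), all higher in tumor. DESeq2 called 3 members higher, where it called 583 of all genes higher and 1458 lower. The levels of 16 members ordered tumor over edge over neural in both sections. Those of 4 (Itga6, Itgad, Itgam and Itgb2) had the edge highest in both. Those of 0 had the reverse order of neural over edge over tumor. Such orders were not counted over all genes, and an edge level between the other regions can reflect the mixture alone. The edge levels of Itgad rested on 17 and 7 UMIs in sections 1 and 2. Their counting intervals overlapped those of tumor and of neural spots in both sections, so its order is uncertain.

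By distance from the border, spots were binned by array steps up to 15 on either side, with at least 20 spots per bin, and all spots 16 or more steps away were pooled into 1 bin on each side. In the bins up to 15 steps, transcripts of Itgb1 were highest 5 steps inside the tumor in section 1, at 741 CPM, and 14 steps inside in section 2, at 662 CPM (here without TMM scaling). They fell across the border to 39.8 CPM at 13 steps and 111 CPM at 7 steps on the neural side, the lowest of these bins, and stood at 60.8 and 83.6 CPM in the pooled bins beyond, which held 1321 and 2002 spots. Itgb2 peaked in the bin just inside the border in both sections, at 364 and 216 CPM. Inside the tumor of section 2 it dipped to 42.7 CPM at 11 steps, and in the pooled far neural bins it was at 12.2 CPM in section 1 and 21.1 CPM in section 2. Itgam peaked within 1 step of the border in both, at 259 CPM on the tumor side of section 1 and 192 CPM on the neural side of section 2. Farther out on the neural side of section 2, levels rose again. Itgam went from 91.9 CPM at 6 steps to 167 CPM at 11 steps, and was at 38.7 CPM in the pooled far bin. Itgb2 went from 73.4 CPM at 7 steps to 110 CPM at 10 steps, and Itgb1 from 111 CPM at 7 steps to 176 CPM at 9 steps. Distance was measured to the tumor body alone, and neural spots beside the low areas left out were not set apart. In section 2 those areas held 203 spots with a median of 16819 UMIs. Members made up 0.322% of their UMIs, against 0.119% in neural spots. A far bin is thus far from the tumor body and not always from such an area. The source of this rise was not tested. Itga5 peaked 3 steps inside in section 1, at 210 CPM, and 1 step inside in section 2, at 79.3 CPM. Itgb8 ran the other way in section 1, from 29.0 CPM at 15 steps inside to 255 CPM at 12 steps outside, and in section 2 lay between 77.9 and 126 CPM up to 15 steps and at 165 CPM in the pooled far neural bin, so it was higher far out than at the border there too.

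**Figure D3:**
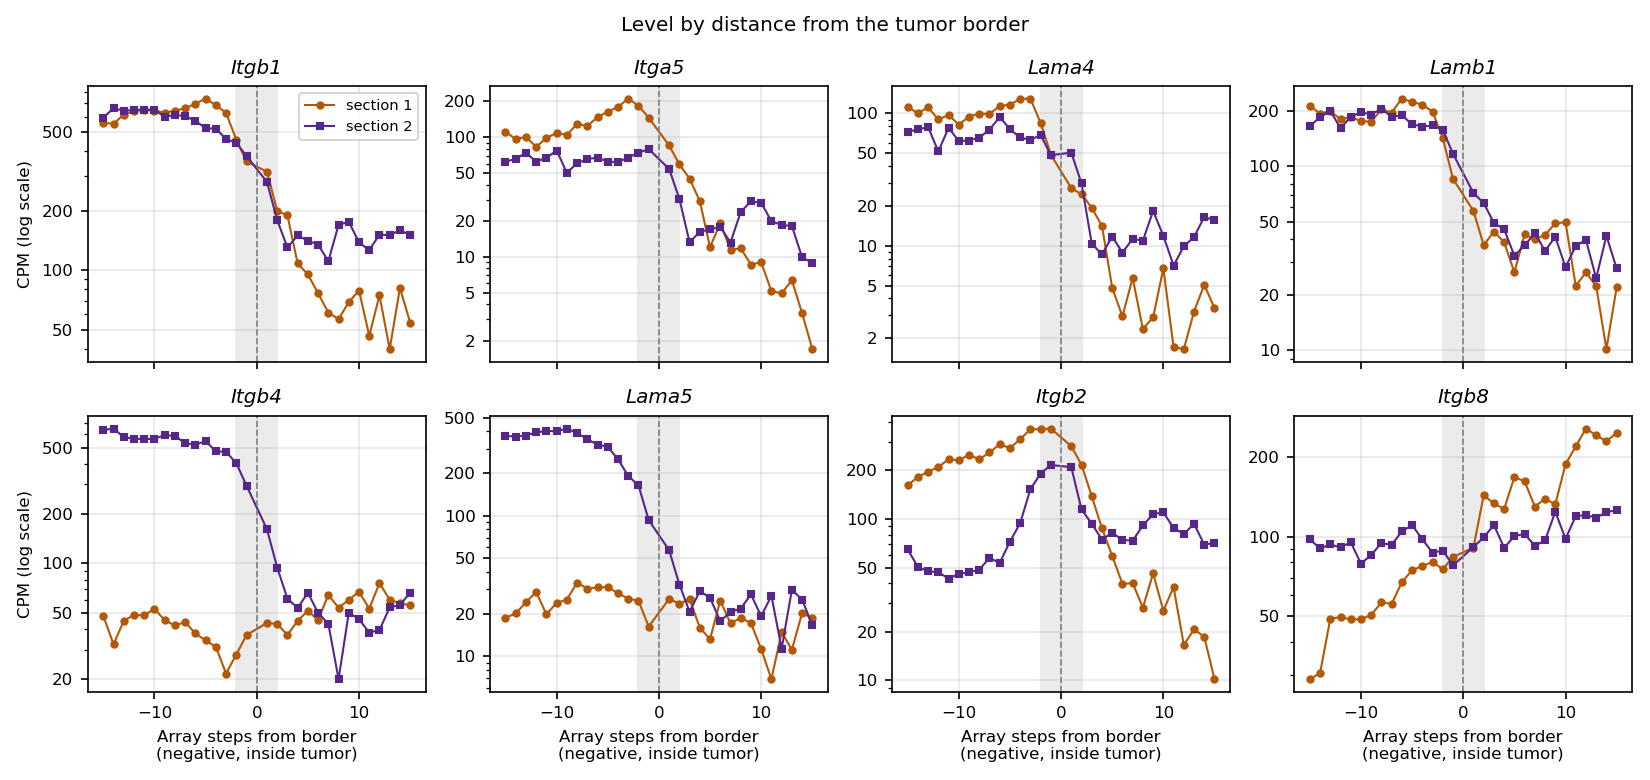
Level in CPM on a log axis, without TMM scaling, against array steps from the tumor border (negative inside the tumor, grey band the edge) for 8 genes, section 1 in orange and section 2 in purple, with at least 20 spots per point and no point beyond 15 steps. Itgb1, Lama4 and Lamb1 fall across the border in both sections, Itgb4 and Lama5 fall steeply in section 2 while in section 1 Lama5 falls by less and Itgb4 does not fall, Itgb2 peaks at the border, and Itgb8 rises outward in section 1.

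**Figure D4:**
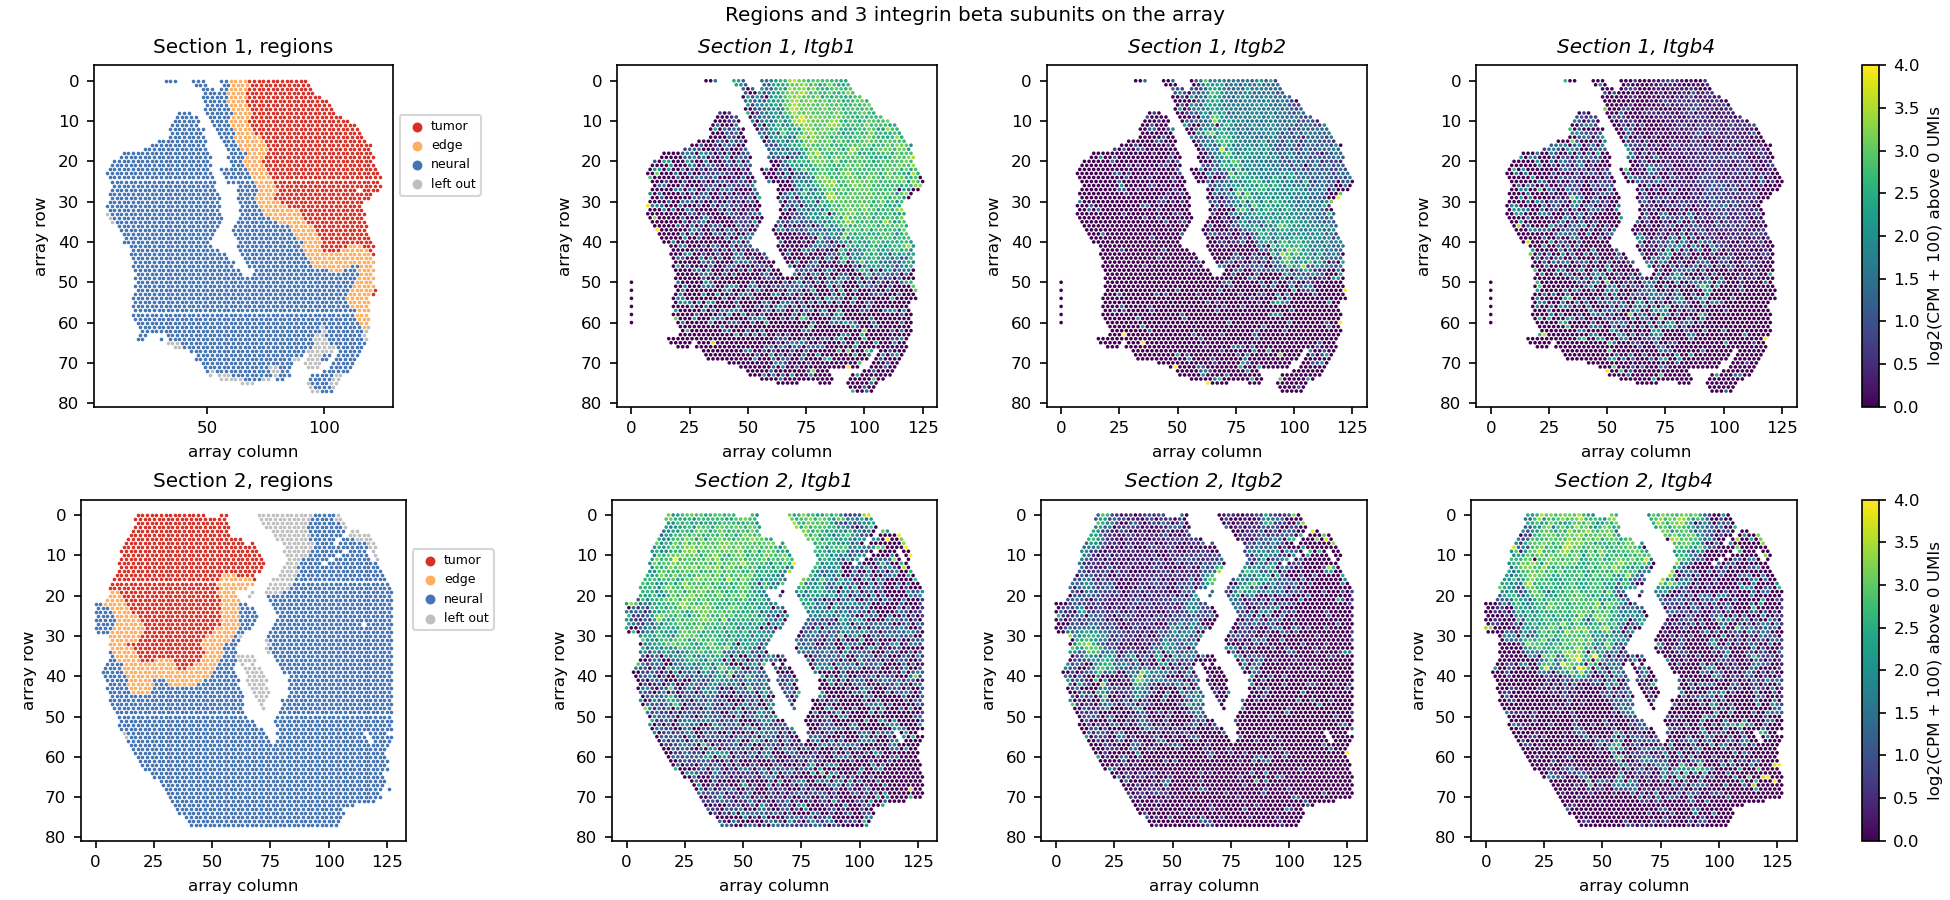
Array maps of section 1 (top) and section 2 (bottom), with array column and row as axes, showing regions and then Itgb1, Itgb2 and Itgb4 in each spot as log2(CPM + 100) less the value at 0 UMIs. Itgb1 fills both tumors, Itgb2 is brightest along the border, most plainly in section 2, and Itgb4 fills the tumor of section 2, with a separate area (grey) that was left out, and not that of section 1. Spots under the UMI minimum are drawn in the gene panels alone.

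Spearman coefficients of members with the mean of each cell type list were computed as a description. They ran across spots of tumor and edge together, 1101 in section 1 and 1093 in section 2. Spots of a section share a library but differ in depth. The median UMI count per spot was 54025.5 and 41026 in tumor and 14859 and 17297 in the edge. The part of depth in the coefficients was not tested. Itgb2 and Itgam had macrophage markers as the list with the highest coefficient in both sections, at 0.55 and 0.67 for Itgb2 and 0.46 and 0.61 for Itgam. For Itgb1 that list was fibroblast in section 1 (0.52) and luminal epithelium in section 2 (0.61). For Lama5 and Itgb4 the luminal list led in section 2, at 0.80 and 0.68. Lamb1 and Lama4 had fibroblast markers first in section 1, at 0.54 and 0.50, and pericyte and smooth muscle markers first in section 2, at 0.38 and 0.41. In neural spots, Itgb5 was highest with macrophage markers in both sections, at 0.31 and 0.39. The macrophage list includes Aif1 (IBA1) and Cd68, which the study counts as markers of macrophages or microglia. A high coefficient with this list therefore does not tell macrophages from microglia. Across tumor and edge spots, Itgb2 and Itgam alone had the same leading list in both sections, among the 20 members with enough UMIs in both. The tumor and edge spots run from the neural side of the border to the tumor interior. The part of this span in the coefficients was not tested.

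**Figure D5:**
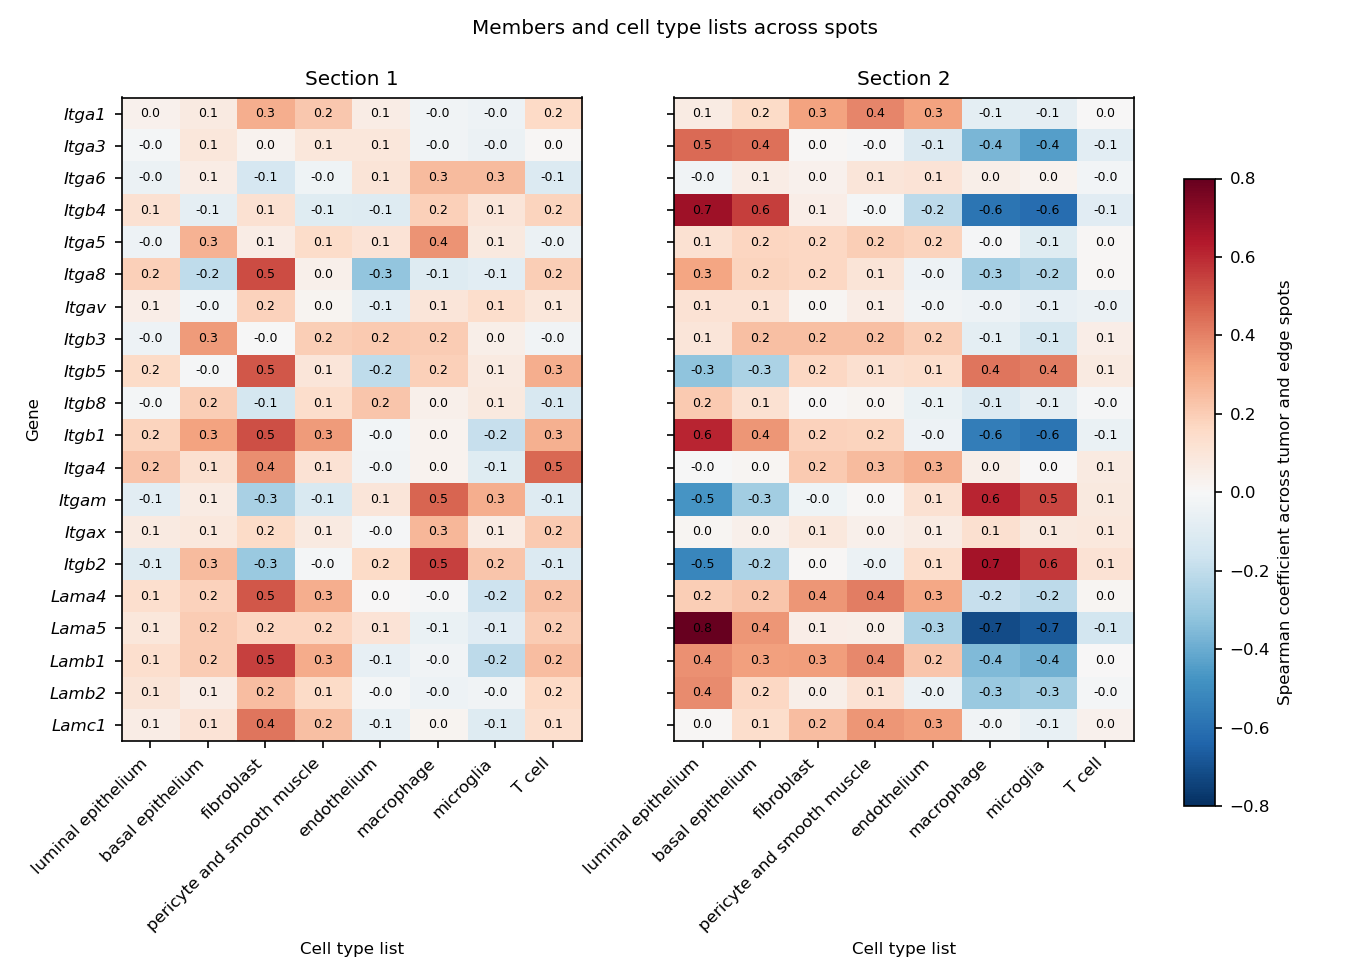
Spearman coefficients across tumor and edge spots between 20 members with a mean of at least 0.5 UMI per spot in both sections (rows) and 8 cell type lists (columns), section 1 on the left and section 2 on the right, red for positive and blue for negative. Itgam and Itgb2 are reddest under macrophage in both sections, and Itgb1 is reddest under fibroblast in section 1 and under luminal epithelium in section 2. Some lists that led for a member, such as dendritic cell markers for Itga4 in section 1, are not drawn.

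Partners of the members were counted from 4 lists. Of all genes tested, 13.7% were called higher and 15.4% lower in tumor against neural spots. In the edge these shares were 3.03% and 3.52%. The median log2 fold change over all genes was -0.12 in tumor and -0.034 in the edge. Of 12 basement membrane partners, 9 rose in tumor against neural spots and 6 in the edge, all by edgeR at an adjusted p below 0.05, with medians of 2.66 and 1.86. Hspg2, the heparan sulfate proteoglycan perlecan, had the largest fold change in both, at log2 4.43 ± 0.35 (SE, edgeR adjusted p = 0.0023) in tumor and 2.99 ± 0.33 (SE) in the edge. It was at 344, 88.5 and 12.9 CPM in tumor, edge and neural spots of section 1 and at 291, 155 and 17.4 CPM in section 2. The collagen IV genes Col4a6 (3.12 in tumor) and Col4a1 (2.65 in the edge) came next.

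Of 17 other integrin ligands, 6 rose in tumor and 4 in the edge. Postn, which encodes periostin, was at 1391, 144 and 8.55 CPM in section 1 and at 232, 99.7 and 4.49 CPM in section 2 (tumor against neural 6.64 ± 0.69 SE, edgeR adjusted p = 0.0049). Tnc, which encodes tenascin C, was at 586, 515 and 20.7 CPM in section 1 and at 3297, 1420 and 72.6 CPM in section 2 (5.19 ± 0.40 SE, edgeR adjusted p = 0.0022). Both ligands were thus high in both tumors, Postn more so in section 1 and Tnc in section 2.

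Of 6 other laminin receptors and hemidesmosome genes, 4 rose in tumor and 2 in the edge. Cd151, a tetraspanin that associates with laminin-binding integrins, rose by log2 2.03 in tumor and by 1.31 in the edge, the latter call lost in 3 alternative fits (edgeR adjusted p 0.075 to 0.141). Col17a1, a hemidesmosomal collagen, was at 117, 75.7 and 3.04 CPM in section 2 and had 1 UMI in the tumor and 0 in the edge and neural spots of section 1, so its call (5.25 ± 0.38 SE, edgeR adjusted p = 0.0020) rests on section 2 and did not hold when the block was left out (edgeR adjusted p = 0.40). Of 25 genes of integrin activation and the adhesion complex, 9 rose and 2 fell in tumor and 3 rose in the edge. Tln1, talin 1, which activates integrins from inside the cell, was at 536, 273 and 71.6 CPM in section 1 and at 429, 352 and 107 CPM in section 2 (2.47 ± 0.31 SE, edgeR adjusted p = 0.0065), and Ptk2b, a kinase of the FAK family, rose by a like amount (2.47). The 2 that fell were Lims2 (-1.95) and Tln2 (-1.40), relatives of Lims1 and Tln1, and the call of Tln2 was lost with neural spots within 15 steps of the tumor (edgeR adjusted p = 0.064). Lims2 was also the only one of these lists' genes called in tumor against edge (-2.06 ± 0.29 SE, edgeR adjusted p = 0.030), a call lost with the neural score threshold 1 log2 unit below the median (-1.66, edgeR adjusted p = 0.121), where edgeR called 0 of all genes. The edge calls of Hspg2, Col4a1, Postn, Tnc, Cd151, Tln1 and Lims1 against neural spots were lost with k-means regions and with nearer neural spots, and those of Postn, Tnc, Cd151 and Lims1 also when the block was left out (edgeR adjusted p 0.073, 0.112, 0.141 and 0.062).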

How the data were processed

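Both sections were fixed with formalin, embedded in paraffin and processed with the mouse transcriptome probes of the CytAssist kit. Per the labels, the authors detected tissue and counted with Space Ranger 2.1.1, with mm10 as the build in the submitters' processing notes, and the deposited matrices hold unnormalized UMI counts for each gene in each spot under tissue. Reads of near relatives among the 37 genes are kept apart only as far as the probes do so, and levels were not compared between genes, since probes differ. The sections held 63986887 and 71878333 UMIs over 3406 and 4017 spots. The 2 arrays share 3096 spot barcodes, as arrays of one design do.

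Spots with under 500 UMIs or 10 genes were left out. The mean of log2(CPM + 100) over 26 neural genes was split by Otsu's threshold in each section, smoothed by majority over neighbors, and the largest connected low area was the tumor body. Low spots outside it, 79 and 203, were left out, and neural tissue next to them was not set apart. For each region of each section the UMI counts were added up, giving 6 libraries, and fitted with edgeR 4.0.16 in R 4.3.3 (TMM, filterByExpr, robust glmQLFit, glmQLFTest, section as a block, 2 residual degrees of freedom). The block is the animal, since the regions within a section share 1 mouse, and the common dispersion was 0.0934 with it and 0.156 without. The block takes out the difference in level between the 2 sections. P-values therefore rest on how far the region differences disagree between the sections, with that spread moderated across genes (median prior degrees of freedom 2.90). Counting intervals (95%, Poisson) cover counting error alone. On simulated data, the test of tumor against neural spots recovered 10% of 100 genes changed by a log2 fold of 1 and 71% of 100 changed by 2, and called 3 of 19001 unchanged genes. Region maps, distances and coefficients were computed in Python 3.11.15.

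The members and gene lists were chosen with earlier results of these data known. Members called in any comparison, or opposite in the sections by more than 1 log2 unit, are described with values, and each partner list with up to 2 genes per direction. The values of 1 member are not reported here. Lists of neurons, astrocytes, oligodendrocytes, choroid plexus, microglia, neutrophils, B cells, dendritic cells, platelets and cycling cells were summed as well. The regions are not the clusters of the study. Alternatives were other normalizations, DESeq2 1.42.0, no filter, no block, each section alone, other edge widths, k-means regions, a higher UMI minimum, a split edge and nearer neural spots.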

Additional observations from a re-analysis of the deposited data

Results flagged for a closer look

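In 4 cases a member went opposite ways in the 2 sections by more than 1 log2 unit each, and the difference between the sections was not tested because each organoid title has 1 section. Itga7 in tumor against neural spots had log2 ratios of 1.89 in section 1 and -1.48 in section 2, a difference of 3.37. Lama2 had 1.25 and -1.11 in the same comparison, a difference of 2.36, and 1.75 and -1.14 in tumor against edge, a difference of 2.89. Itgae in tumor against edge had 1.32 and -1.28, a difference of 2.60. Fibroblast markers summed to 62354 and 794 CPM in the tumors of sections 1 and 2. T cell markers summed to 343 and 16.5 CPM there and dendritic cell markers, with the MHC class II gene H2-Ab1 among them, to 3134 and 71.9 CPM. Their part in these values was not tested.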

How the results depend on the processing

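The count of members higher in tumor against neural spots was 15, ran from 11 with library size as the only scaling to 21 with the edge split in the fit under edgeR, and was 24 with DESeq2. Over all genes these counts were 2631, 1878, 3445 and 4160 in the same order. Without the replicate block 12 members and 1749 of all genes were called higher, with calls lost for Itga1, Itga6, Itgav, Lamb2 and Lamb3. The 9 called under every alternative fit were Itga2, Itga5, Itga8, Itgax, Itgb1, Itgb3, Lama4, Lamb1 and Lamc1. Lamb3 lost its call under 9 alternatives, with adjusted p between 0.0501 and 0.136. Members lower were 0 except for 1, Itgb8, with the edge split in the fit. Members higher in edge against neural were 7, but 15 with DESeq2, 14 with the edge split, 0 with k-means regions and 0 with neural spots within 15 steps, and 7 without the replicate block. Over all genes these counts were 583, 1780, 1577, 0, 0 and 365 in the same order. Members higher in tumor against edge were 0, but 3 with DESeq2, 2 with k-means regions and 3 with the edge split. Over all genes these counts were 25, 583, 323 and 663 in the same order. Signs turned for Itga7 in tumor against neural with library size (-0.15), with nearer neural spots (-0.078) and with a threshold 1 log2 unit below the median score (-0.21), for Lama2 with library size (-0.046), for Itgad with RLE factors (0.031), DESeq2 (0.021) and no replicate block (0.019), and for Itgae in tumor against edge with library size (-0.00113) and k-means regions (-0.00777). The cause was not tested. Of 741 refits of members, 649 kept direction and side of the threshold, 46 passed it anew, 37 lost it and 9 turned. Of 234 refits of the named partners, 21 lost their call. Library size as the only scaling moved the median of all genes in tumor against neural from -0.12 to -0.43 and the calls over all genes from 2631 higher and 2960 lower to 1878 and 4273. Leaving out a section leaves no test. A threshold 2 log2 units below the median left almost no low spots and was not run. The threshold at 1 unit, and a tumor body of all low areas of at least 100 spots, were chosen after seeing the data. A change of log2 1 was seldom detected in the simulated data, where far fewer genes changed than were called here. Itgav (0.98), Itga6 (1.09) and Lamb2 (1.16) were called in tumor against neural spots at about that size.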

Other observations

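Other cell type lists were summed in tumor, edge and neural spots as values without a test. The 6 dendritic cell markers, among them the MHC class II gene H2-Ab1, summed to 3134, 536 and 109 CPM in section 1 and to 71.9, 158 and 103 CPM in section 2. The 6 microglia markers summed to 1151, 1474 and 468 CPM in section 1 and to 368, 1314 and 677 CPM in section 2, highest in the edge both times. The 7 neutrophil markers lay between 28.0 and 105 CPM in all 6 libraries, the 5 platelet markers between 17.3 and 114 CPM, and the 7 B and plasma cell markers at 167 and 17.3 CPM in the tumors of sections 1 and 2. The 8 pericyte and smooth muscle markers summed to 387, 209 and 153 CPM in section 1 and to 266, 258 and 141 CPM in section 2. All 5 cycling markers rose in tumor and in edge against neural spots by edgeR at an adjusted p below 0.05. Their sums were 551 and 533 CPM in tumor and 43.2 and 66.8 CPM in neural spots. Of all genes, 13.7% were called higher and 15.4% lower in tumor and 3.03% higher in the edge. Of the neural lists in tumor against neural spots, 9 of 9 neuron, 7 of 7 oligodendrocyte, 5 of 7 astrocyte and 5 of 6 choroid plexus markers fell by the same test, and neuron, oligodendrocyte and astrocyte genes are among those that set the regions.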
